A study of Mus musculus with 4 samples.

Results

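Pancreatic acinar and islet transcripts were followed across 4 mouse RNA samples on 1-colour Agilent arrays. The set holds 38 gene names, and every array spot other than a control that carried one of these names was used. Of the 38 names, 36 were on the array, read by 44 probes of 60 bases out of 39429 probes and 30107 named genes or transcripts in all. Try10 and Prss3 were not matched to a spot. In this set 28 genes had 1 probe and 8 genes had 2. The members were chosen because they were known from these same arrays to be far brighter on whole intestine than on crypt, so that difference is described here and supports nothing.

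The 4 groups were o-organoid, y-organoid, crypt and whole intestine, with 1 array each. All were labelled as wild type and of strain C57/BL6, and no treatment was named for any of them. The 2 organoid samples were cultures of crypt-villus structures, which are intestinal epithelium grown outside the animal, and crypts are the stem cell pits of the intestinal lining. The sources used here do not give the meaning of y and o, the age and sex of the mice, the gut segment, the number of animals or the time in culture. The labelling reaction took 40 ng of RNA for o-organoid and 20 ng for each of the other samples.

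Acinar cells of the exocrine pancreas make digestive enzymes, store most proteases as inactive zymogens in granules, and secrete them into the gut. There the brush border protease enteropeptidase turns trypsinogen into trypsin, which then activates the other zymogens. Acinar identity depends on PTF1, a complex of Ptf1a and Rbpjl, and on Bhlha15 (Mist1), whereas beta cells of the islets secrete insulin and amylin.

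Several members belong to enzyme families whose genes are close relatives, and the probe pairs below are shown because their signals may be shared between such genes. Capitals mark the bases at which the 2 probes of a pair differ within their aligned stretch. The probes of Cela3b (mm9 chr4:136979192-136979251, minus strand) and Gm13011 (mm9 chr4:136959734-136959793, minus strand), 2 pancreatic elastases, differed at 6 of 58 aligned bases. This is the second Gm13011 probe. The first, which stands for the gene below, had 45.8% identity with the Cela3b probe over 24 aligned bases.
Cela3b: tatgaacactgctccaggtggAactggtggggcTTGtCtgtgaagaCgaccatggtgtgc
Gm13011: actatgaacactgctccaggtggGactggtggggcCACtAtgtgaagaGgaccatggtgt

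The amylase probes of Amy1 (mm9 chr3:113258901-113258960, minus strand) and Amy2a5 (mm9 chr3:113084781-113084840, minus strand) differed at 7 of 46 aligned bases.
Amy1: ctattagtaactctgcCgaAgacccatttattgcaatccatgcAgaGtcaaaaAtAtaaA
Amy2a5: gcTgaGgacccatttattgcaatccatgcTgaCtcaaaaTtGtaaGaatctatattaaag

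The trypsinogen probes of Try4 and Try5 differed at 2 of 45 aligned bases and shared an unbroken run of 31. The array annotation lists Try5 as well for the Try4 probe, another gene for the second Prss1 probe, and Amy1 for the second Amy2a5 probe. The second probes of Prss1 and Amy2a5 do not stand for their genes in the values below, unless named. Values of single members of these families are therefore uncertain. The share of each signal that came from a relative was not tested.

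Further probes on which the results turn read Cel, the bile salt-dependent lipase (mm9 chr2:28411609-28411668, minus strand), Ptf1a, the acinar transcription factor (mm9 chr2:19368720-19368779, plus strand), and the insulin gene Ins1 (mm9 chr19:52339385-52339444, plus strand). The last 2 read Clps, the lipase cofactor colipase, by its dimmer probe (mm9 chr17:28695761-28695820, minus strand) and Amy2a5 by its second probe (mm9 chr3:113091400-113091459, minus strand). Which exon or untranslated region each probe lies in was not analysed here.
Cel: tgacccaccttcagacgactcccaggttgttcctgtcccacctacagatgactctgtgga
Ptf1a: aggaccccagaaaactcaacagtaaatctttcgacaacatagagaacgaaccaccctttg
Ins1: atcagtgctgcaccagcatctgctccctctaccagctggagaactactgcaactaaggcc
Clps second probe: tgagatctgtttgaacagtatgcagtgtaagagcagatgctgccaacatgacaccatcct
Amy2a5 second probe: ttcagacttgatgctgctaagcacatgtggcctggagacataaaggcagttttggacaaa

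All signals are on the log2 scale with the 75th percentile of the array set to 0. That percentile lay at an intensity of 644.0 on o-organoid, 281.9 on y-organoid, 472.3 on crypt and 386.3 on intestine. Where a gene had 2 probes, the one brighter on average stood for it. A probe that the scanner software did not rate as well above background is called dim, and a fold against it is given as a bound (at least so many fold). The bound was taken against the dim probe's own signal or, if higher, the lowest well-above-background signal of that array, which was -5.01 on o-organoid, -4.47 on y-organoid, -4.53 on crypt and -4.48 on intestine. Spots of probes printed repeatedly gave a difference between 2 arrays an SD of 0.14 to 0.19, a figure that holds no labelling or hybridisation error. With 1 array a group there is no test, p-value or error between samples, and each difference describes arrays and not conditions. The 10 pan-epithelial genes were well above background on all 4 arrays. Xist was well above background on the intestine array alone, and the Y-linked Ddx3y on the other 3 arrays and not on intestine, so the intestine RNA did not match the other samples in sex-linked transcripts.

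All 36 members were well above background on whole intestine, against 19 on o-organoid, 21 on y-organoid and 22 on crypt. Member probes held 0.09% of the summed intensity of the o-organoid array, 0.013% on y-organoid, 0.253% on crypt and 7.36% on intestine. In RNA from bulk samples, fewer cells of a type and less RNA per cell cannot be told apart. On the crypt array 34 of 36 members (94.4%) were at least 4-fold lower than on intestine, beside 7.36% of the 18196 genes measured in this comparison. On y-organoid 35 of 36 were at least 4-fold lower than on intestine, beside 10.0% of genes, and on o-organoid 35 of 36, beside 12.4%. The members' median difference was -10.62 for o-organoid minus intestine, -10.60 for y-organoid minus intestine and -10.97 for crypt minus intestine. All genes had medians of -0.07 for o-organoid, 0.16 for y-organoid and 0.06 for crypt, each minus intestine. On the 3 other arrays 0 members were at least 4-fold higher than on intestine, beside 3.49% of genes for o-organoid, 4.93% for y-organoid and 0.357% for crypt. These counts repeat what the members were chosen for, and the 3 comparisons share the intestine array.

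**Figure D1:**
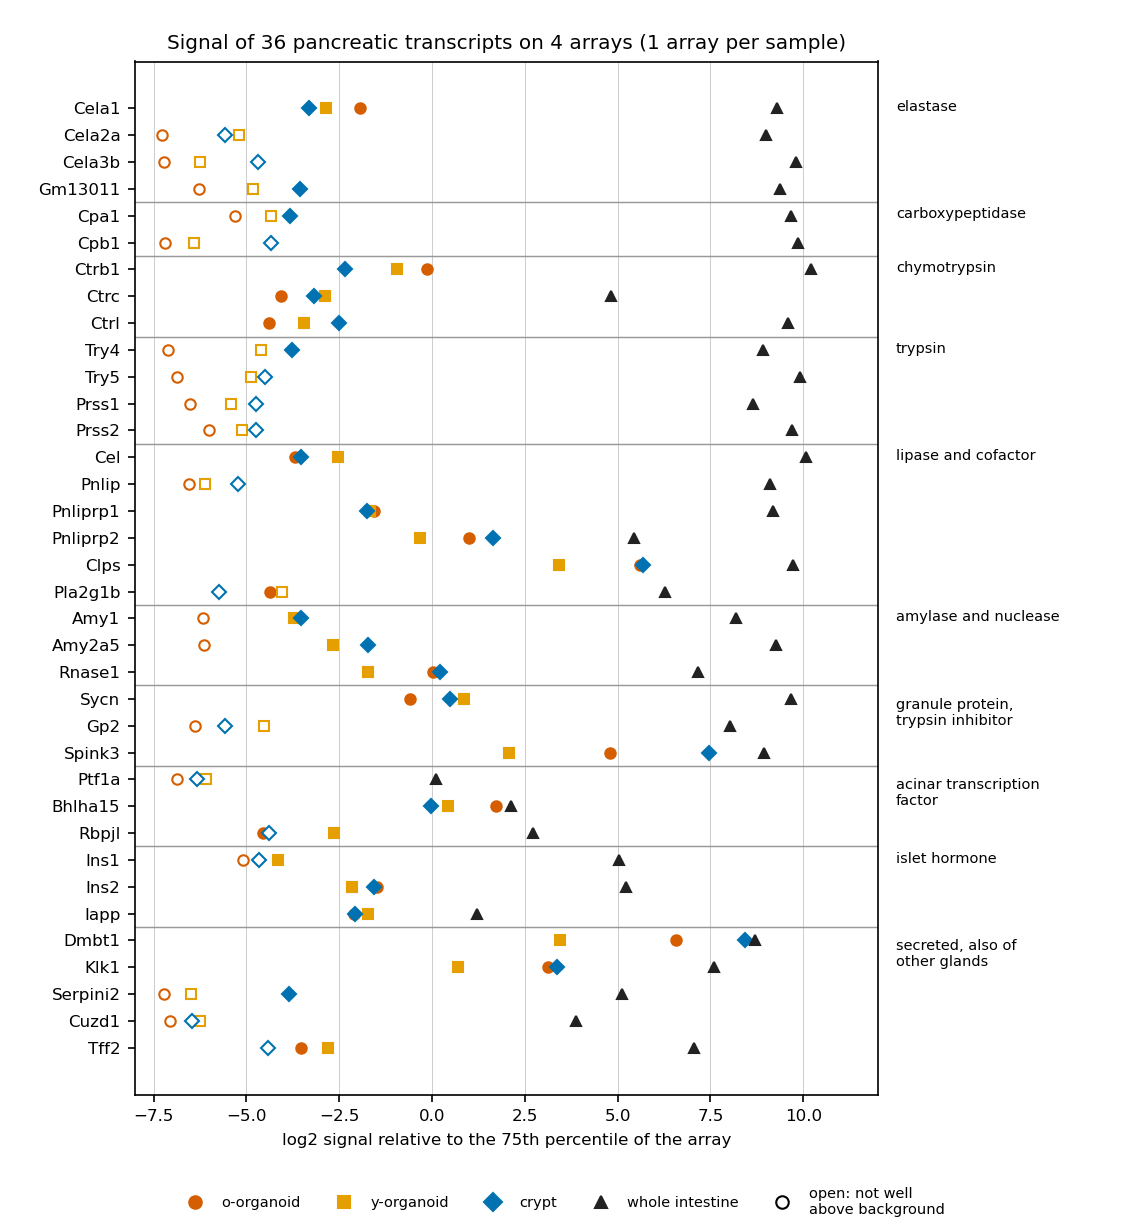
Log2 signal of each of the 36 pancreatic transcripts (rows, grouped by role) relative to the 75th percentile of its array, with 1 point for each of the 4 arrays and open points where a probe was not well above background. All 36 intestine points are filled, against 19 on o-organoid, 21 on y-organoid and 22 on crypt, and Dmbt1, Spink3 and Bhlha15 lie closest to their intestine value on at least 1 other array.

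Among proteases that cut inside proteins, the 4 elastases, which cut after small residues, had signals of 8.99 to 9.81 on intestine. Cela1 had -1.95 on o-organoid, -2.85 on y-organoid, -3.30 on crypt and 9.30 on intestine, the only elastase well above background on all 4. It was thus low yet measured on the 3 arrays other than intestine. Cela3b had -7.21 on o-organoid, -6.24 on y-organoid and -4.69 on crypt, none of them well above background, and 9.81 on intestine. Crypt was at least 20830-fold lower than intestine for Cela3b and at least 11800-fold lower for Cela2a, which was also dim on the 3 other arrays. Gm13011, now named Cela3a, was well above background by its first probe on crypt (-3.55) and intestine (9.38) and dim on both organoid arrays, and its second probe was dim on crypt as well.

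The 3 chymotrypsin genes, whose products cut after large hydrophobic residues, were the only protease family measured in full on every array. Ctrb1, chymotrypsinogen B, had -0.15 on o-organoid, -0.96 on y-organoid, -2.34 on crypt and 10.21 on intestine. Ctrl, a chymotrypsin-like protease, had -4.40 on o-organoid, -3.45 on y-organoid, -2.52 on crypt and 9.60 on intestine. The 3 arrays other than intestine thus stood in opposite order for these genes. Ctrc, chymotrypsin C, which also regulates trypsinogen, had -4.08 on o-organoid, -2.89 on y-organoid, -3.18 on crypt and 4.83 on intestine.

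Of the 4 trypsinogens only 1 was measured outside intestine, on crypt. Try4 had -7.11 on o-organoid and -4.60 on y-organoid, both dim, -3.78 on crypt and 8.91 on intestine. Try5, Prss1 and Prss2 were dim on every array but intestine, where they had 9.92, 8.64 and 9.69. Crypt was at least 22000-fold lower than intestine for Try5, at least 19160-fold lower for Prss2 and at least 9260-fold lower for Prss1. The carboxypeptidases, which trim amino acids from the end of peptides, were alike in this: Cpb1 was dim on all 3 other arrays and 9.86 on intestine. Cpa1 was dim on both organoid arrays, -3.82 on crypt and 9.67 on intestine, a crypt difference of -13.50.

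Lipid-digesting enzymes spread more widely among themselves. Cel had -3.68 on o-organoid, -2.54 on y-organoid, -3.54 on crypt and 10.06 on intestine. Pnlip, pancreatic triglyceride lipase, was dim on the 3 arrays other than intestine, where it had 9.12. Both were thus among the widest intestine differences of the set. Pnliprp1, a lipase-related protein, had -1.57 on o-organoid, -1.67 on y-organoid, -1.76 on crypt and 9.19 on intestine. Its 3 low values lay within 0.18 of each other, a span about as large as repeated spots alone gave. Pnliprp2, a relative with activity on galactolipids, had 1.0 on o-organoid, -0.31 on y-organoid, 1.64 on crypt and 5.44 on intestine. Clps had 5.60 on o-organoid, 3.42 on y-organoid, 5.67 on crypt and 9.73 on intestine, so colipase gave a clear signal in the epithelial samples, where Pnlip, the enzyme it anchors to fat droplets, was dim. Pla2g1b, the secreted pancreatic phospholipase, was well above background by its brighter probe on o-organoid (-4.36) and intestine (6.29) and dim on y-organoid and crypt.

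Starch- and RNA-digesting enzymes followed. Amy2a5, pancreatic amylase, had -6.14 on o-organoid, which was dim, -2.66 on y-organoid, -1.73 on crypt and 9.26 on intestine. Amy1, the amylase gene named for saliva, had -6.16 on o-organoid, also dim, -3.73 on y-organoid, -3.52 on crypt and 8.18 on intestine. By these probes both amylases were dim on o-organoid and measured on the other 3 arrays, whereas the second Amy2a5 probe was dim on y-organoid and crypt too. Rnase1, pancreatic ribonuclease, had 0.03 on o-organoid, -1.72 on y-organoid, 0.22 on crypt and 7.18 on intestine.

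Among granule proteins, Sycn (syncollin) had -0.60 on o-organoid, 0.86 on y-organoid, 0.48 on crypt and 9.67 on intestine. Gp2, the main glycoprotein of the zymogen granule membrane, was dim on all arrays but intestine (8.02). Sycn was thus read everywhere and Gp2 on intestine alone. Spink3, now named Spink1, an inhibitor that protects acinar cells from early trypsin activity, had 4.80 on o-organoid, 2.08 on y-organoid, 7.45 on crypt and 8.95 on intestine. The crypt value was 2.83-fold below intestine, one of only 2 members that were less than 4-fold lower on crypt. Bhlha15 also fell under 4-fold in part of the settings (-2.15 to -1.40).

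The 3 acinar transcription factors differed among themselves. Ptf1a was dim on the 3 other arrays and 0.11 on intestine, so crypt was at least 25-fold lower. Rbpjl, its partner, had -4.56 on o-organoid, -2.63 on y-organoid, -4.39 on crypt, which was dim, and 2.73 on intestine. Bhlha15, which is also known from other secretory cells, had 1.74 on o-organoid, 0.42 on y-organoid, -0.01 on crypt and 2.14 on intestine. It was the only member less than 4-fold lower on either organoid array than on intestine, with differences of -0.40 on o-organoid and -1.71 on y-organoid. Over the settings its o-organoid difference ran from -0.40 to 0.47 and so changed sign. The o-organoid difference of Dmbt1 ran from -2.15 to -1.28, and so it also fell under 4-fold in part of the settings.

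Of the islet hormones, Ins2 and Iapp were lower than on intestine by smaller steps than most enzymes. Ins1 was at least 756-fold lower on crypt and at least 1050-fold lower on o-organoid, so its steps there cannot be ranked. On y-organoid Ins1 was 575-fold lower. The hormones also had lower intestine signals than most enzymes, which limits the step that can be read. Ins1 had -5.08 on o-organoid and -4.65 on crypt, both dim, -4.14 on y-organoid and 5.03 on intestine. Ins2, the second mouse insulin gene, had -1.48 on o-organoid, -2.15 on y-organoid, -1.55 on crypt and 5.23 on intestine. Iapp, the precursor of amylin, had -2.09 on o-organoid, -1.71 on y-organoid, -2.09 on crypt and 1.22 on intestine. Of 23 other islet genes on the array, 19 were well above background on crypt or intestine. Among these, 1 (5.26%) was at least 4-fold lower on crypt, beside 7.36% of all genes. It was the bound of pancreatic polypeptide (Ppy, at least 26.0-fold). Pcsk2 (3.999-fold) and Pdx1 (3.53-fold) were lower on crypt by less than 4-fold.

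Secreted proteins that other glands are also known to make came last. Dmbt1, a mucin-like protein of gut and gland epithelia, had 6.56 on o-organoid, 3.46 on y-organoid, 8.42 on crypt and 8.71 on intestine, and crypt was 1.22-fold below intestine. Over the settings this Dmbt1 difference ran from -0.31 to 0.47 and so changed sign. Klk1, tissue kallikrein, had 3.13 on o-organoid, 0.71 on y-organoid, 3.37 on crypt and 7.60 on intestine. Both were thus read clearly on all 4 arrays. Tff2, a trefoil peptide of gastric and duodenal mucus, had -3.52 on o-organoid, -2.80 on y-organoid, -4.41 on crypt, which was dim, and 7.07 on intestine. Serpini2, a serine protease inhibitor, was measured only on crypt (-3.86) and intestine (5.11), and Cuzd1, a zymogen granule membrane protein, only on intestine (3.89).

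Differences between the epithelial samples do not involve the intestine array, but the crypt array was used in choosing the members. Of 36 members, 25 had a difference for y-organoid minus crypt, 24 for o-organoid minus crypt and 21 for o-organoid minus y-organoid. Of these, 7, 8 and 3 were bounds, which do not show how wide a difference is. The other members were too dim to compare. Most differences that could be given were under 4-fold. On y-organoid 4 of 25 members measured on either array (16%) were at least 4-fold lower than on crypt, beside 4.4% of all genes, and 0 were at least 4-fold higher, beside 4.85%. The 4 were Spink3 (41.4-fold), Dmbt1 (31.3-fold), Klk1 (6.33-fold) and Clps (4.77-fold). On o-organoid 2 of 24 members (8.33%) were at least 4-fold lower than on crypt, beside 4.51% of genes. They were Spink3, 6.27-fold lower, and Amy2a5, at least 9.70-fold lower. Ctrb1 was 4.58-fold higher on o-organoid than on crypt, the 1 member of 24 past that size upward, beside 1.82% of genes. With quantile normalization or normexp background correction Ctrb1 did not reach 4-fold, and Amy2a5 did not reach it with normexp (-1.85) or the mean over its probes (-1.24). The median member difference from crypt was -0.44 on o-organoid, beside -0.001 for all genes, and -0.51 on y-organoid, beside 0.16. The y-organoid median ranged over -1.07 to 0.20 across the alternative settings, and so it changed sign.

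Between the organoid samples, 4 of 21 members (19%) were at least 4-fold higher on o-organoid than on y-organoid, beside 0.973% of all genes. These were Dmbt1 (8.60-fold), Spink3 (6.60-fold), Klk1 (5.35-fold) and Clps (4.52-fold), the same genes that were lower on y-organoid than on crypt, and both comparisons use the y-organoid array. Each kept its direction under all 7 alternative settings, with differences of 2.99 to 3.74 for Dmbt1, 2.70 to 3.36 for Spink3, 2.41 to 3.06 for Klk1 and 2.18 to 3.06 for Clps. Amy2a5 was at least 5.09-fold lower on o-organoid, the 1 member of 21 past 4-fold downward, beside 3.1% of genes, and its difference ranged from -3.48 to -0.55 over the settings, under 4-fold with median scaling, quantile normalization, normexp, the mean over probes and the deposited table. The median member difference was 0.10, beside -0.18 for all genes, and it changed sign over the settings (-0.80 to 0.53). Over all genes 164 were at least 4-fold higher and 523 lower on o-organoid, and scaling by the array median gave 634 higher and 174 lower. The amount of RNA labelled was also larger for o-organoid, and its part in these differences was not tested.

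**Figure D2:**
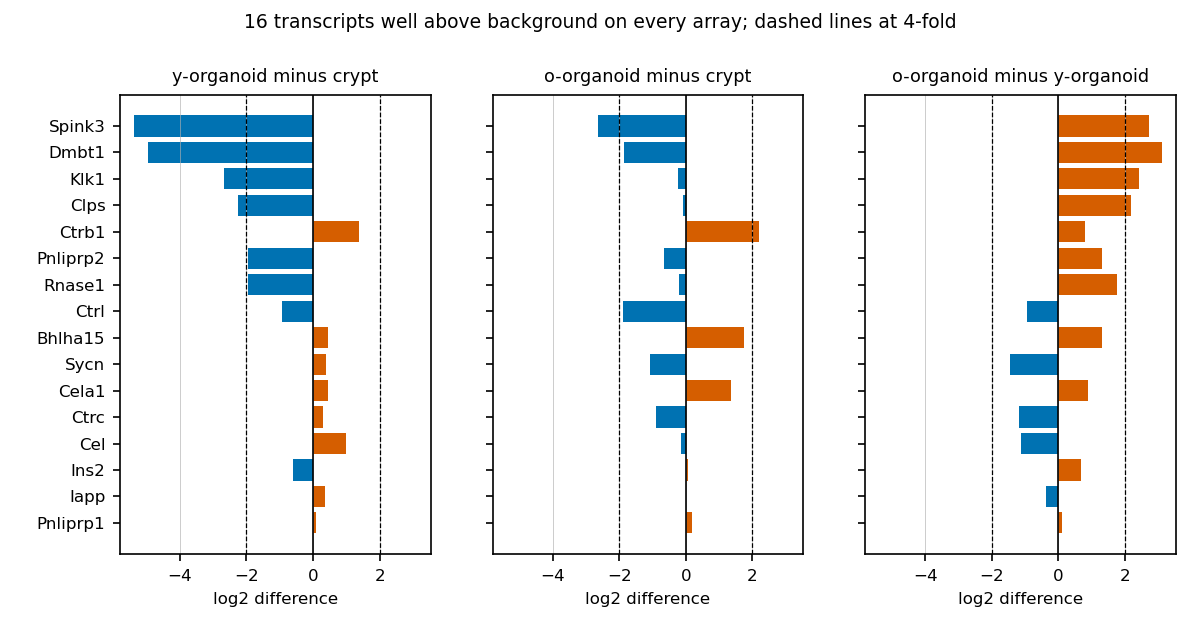
Log2 differences (horizontal axis) of the 16 members that were well above background on all 4 arrays, for y-organoid minus crypt, o-organoid minus crypt and o-organoid minus y-organoid, with bars from 0 and dashed lines at 4-fold. Spink3, Dmbt1, Klk1 and Clps pass the dashed line to the left for y-organoid minus crypt and to the right for o-organoid minus y-organoid, while Pnliprp1, Iapp and Ins2 stay near 0 in all 3 panels.

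Of the 16 members measured on all 4 arrays, 3 (Pnliprp1, Iapp and Ins2) stayed within 2-fold over o-organoid, y-organoid and crypt. In 5 members, Ctrb1, Clps, Klk1, Dmbt1 and Spink3, the epithelial samples spanned more than 4-fold. The span was widest in Spink3, at 41.4-fold with crypt highest and y-organoid lowest, and Dmbt1 had the same order. Among the other 11 members the spans ran from 1.14-fold in Pnliprp1 to 3.87-fold in Pnliprp2. Members that were high in the epithelial samples and members that were near background there are both in this set, and differences among the dim ones are less precise, since repeated spots had an SD of 0.31 to 0.38 on an array for signals below -2.

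Members with 2 probes showed where a single value depends on the probe. Clps had a second probe with 3.79 on o-organoid, -0.15 on y-organoid, 3.78 on crypt and 8.93 on intestine. It gave the same pattern with a wider gap, 3.94 for o-organoid minus y-organoid against 2.18 by the brighter probe. The second Amy2a5 probe had -6.46 on o-organoid, -6.25 on y-organoid and -5.80 on crypt, all dim, and 9.85 on intestine. The y-organoid and crypt signals of Amy2a5, and with them both of its 4-fold differences, thus rest on 1 of its 2 probes. Ctrc had a second probe at 0.23 on intestine and dim elsewhere, against 4.83 by the first, and crypt was at least 27.1-fold lower than intestine by it. The second probe of Pla2g1b was well above background on y-organoid (-3.82) and intestine (0.89) and dim on o-organoid and crypt. The 2 Pla2g1b probes thus disagree on which organoid array reads the gene. The second probes of Rbpjl (0.62) and Gp2 (6.22) were well above background on intestine alone, and so was that of Gm13011 (9.58), so the crypt signal of Gm13011 rests on 1 of its 2 probes. All 16 probes of these 8 genes were brightest on intestine.

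**Figure D3:**
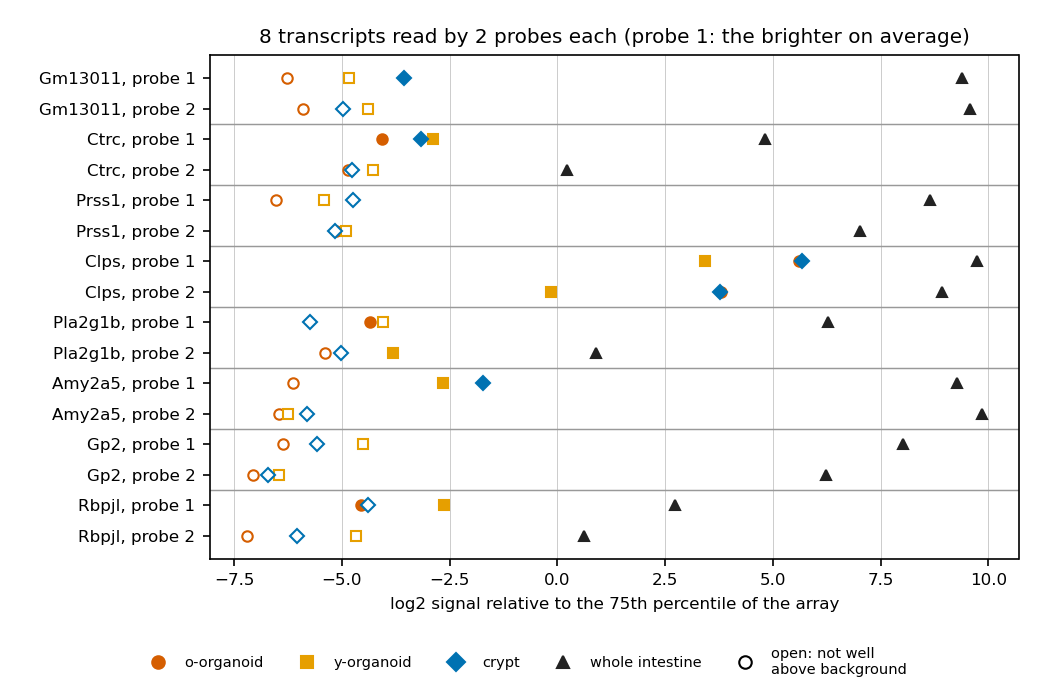
Log2 signal of the 16 probes of the 8 members read by 2 probes, relative to the 75th percentile of the array, with 1 point an array and open points where a probe was not well above background. Every intestine point is filled and lies right of the other 3, and Amy2a5 has filled y-organoid and crypt points for its first probe only.

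Other genes of pancreas and of neighbouring organs were read from fixed lists to place the members. Of 17 other acinar genes, all well above background on intestine, 15 were at least 4-fold lower on o-organoid (median -6.43), 14 on y-organoid (median -6.57) and 11 on crypt (median -5.67). These are shares of 88.2% on o-organoid, 82.4% on y-organoid and 64.7% on crypt, beside 12.4%, 10.0% and 7.36% of all genes. Crypt was at least 3679-fold lower than intestine for Reg2, a regenerating family protein, at least 6466-fold for Gm5771, at least 946-fold for 2210010C04Rik and at least 481-fold for Gm5409. Crypt was also lower for the stress protein Nupr1 (50.8-fold), the disulfide isomerase Pdia2 (195-fold), Gnmt (16.1-fold) and Tmed6 (18.6-fold). It was at least 230-fold lower for the water channel Aqp12 and at least 62.3-fold for Cckar, the cholecystokinin receptor. The list divides, since Reg1, Reg3a, Zg16 and Erp27 were less than 4-fold apart between crypt and intestine, as were the transcription factors Nr5a2 (0.43) and Gata4 (0.25). Nr5a2 and Gata4 were also less than 2-fold from intestine on both organoid arrays. Against intestine, Reg1 was 10.9-fold lower on o-organoid and 36.4-fold lower on y-organoid, and Reg3a, an antimicrobial lectin, 24.9-fold lower on o-organoid and 73.3-fold lower on y-organoid. Zg16 was 66.3-fold lower on o-organoid and 326-fold lower on y-organoid, and Erp27 was 136-fold lower on o-organoid and 94.9-fold lower on y-organoid.

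Other islet genes had medians near 0 or slightly below: -0.78 for o-organoid, 0.08 for y-organoid and -0.02 for crypt, each minus intestine. At least 4-fold lower than on intestine were 5 of 18 on o-organoid (Sst, Ppy, Pyy and Pcsk2 among them), 3 of 19 on y-organoid (Ppy and Pyy among them) and 1 of 19 on crypt (Ppy). These are shares of 27.8% on o-organoid, 15.8% on y-organoid and 5.26% on crypt, beside 12.4%, 10.0% and 7.36% of all genes. Several of these hormones are also made by enteroendocrine cells of the gut. Glucagon (Gcg) had -0.82 on o-organoid, 1.60 on y-organoid, 1.53 on crypt and 0.31 on intestine, and Slc30a8 and G6pc2, a zinc transporter and an enzyme of beta cells, were not well above background on any array. Of 10 pancreatic duct genes, 2 were at least 4-fold lower on crypt than on intestine, both as bounds, Muc1 (at least 6.17-fold) and Onecut1 (at least 6.87-fold). The chloride channel gene Cftr was 8.84-fold higher on y-organoid than on intestine, and the duct and stem cell factor Sox9 was 4.72-fold higher. On o-organoid Sox9 was 5.50-fold and the keratin Krt7 5.13-fold higher than on intestine, and the carbonic anhydrase Car2 was 5.61-fold lower. Muc1 was at least 8.57-fold lower on o-organoid and at least 5.91-fold lower on y-organoid, and Onecut1 at least 9.54-fold and 6.58-fold. The duct list thus had 2 genes higher and 3 lower on o-organoid, and 2 higher and 2 lower on y-organoid.

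Against crypt, 4 of 11 measured genes of the other acinar list (36.4%) were at least 4-fold lower on each organoid array. The shares of all genes were 4.51% on o-organoid and 4.4% on y-organoid. At least 4-fold higher were 2 of 11 on o-organoid (18.2%), beside 1.82% of genes, and 1 of 11 on y-organoid (9.09%), beside 4.85%. Zg16, a lectin of granules and gut mucus, was 30.8-fold lower on o-organoid and 151-fold lower on y-organoid, and Reg3a was 31.8-fold lower on o-organoid and 93.8-fold lower on y-organoid. Erp27, a chaperone of the endoplasmic reticulum, was 41.3-fold lower on o-organoid and 28.8-fold lower on y-organoid. The organoid arrays were thus lower than crypt in these 3 genes alike, while Nupr1 went the other way, 8.21-fold higher on o-organoid and 28.2-fold higher on y-organoid. Pdia2 was 6.22-fold lower and Tmed6 4.03-fold higher on o-organoid than on crypt, and Reg1 was 9.73-fold lower on y-organoid. Of other islet genes, Gcg and somatostatin (Sst) were 5.08-fold and 6.02-fold lower on o-organoid than on crypt.

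Of 12 stomach genes, 8 were measured against intestine on o-organoid, 8 on y-organoid and 6 on crypt. None of those measured was at least 4-fold lower than on intestine. Most of them had intestine signals too close to the background bounds of the other arrays for such a call, so this count cannot set them apart from the members. On no array were 4 of the 12 stomach genes and 6 of 9 salivary gland genes above background. Egf was the only salivary gland gene at least 4-fold lower on crypt (at least 9.74-fold), and Trf, transferrin, the only one of 4 measured liver genes (24.4-fold). Fat cell genes were also at least 4-fold lower than on intestine, 7 of 7 measured on o-organoid, 7 of 7 on y-organoid and 6 of 7 on crypt. Crypt was at least 352-fold lower for the adipsin gene Cfd. Of measured red cell genes 5 of 6 were at least 4-fold lower on each of the 3 arrays, with the globin gene Hba-a2 153-fold lower on crypt. Over all genes the shares at least 4-fold lower were 12.4% on o-organoid, 10.0% on y-organoid and 7.36% on crypt. Signals were also summed over a list on the linear scale before log2 was taken, so the brightest genes weigh most. For the fat cell list this log2 sum was -0.13 on o-organoid, 0.31 on y-organoid, 2.14 on crypt and 5.24 on intestine. For the red cell list it was -2.64 on o-organoid, -1.79 on y-organoid, 0.50 on crypt and 7.58 on intestine. For the 36 members it was 7.56 on o-organoid, 5.12 on y-organoid, 9.20 on crypt and 13.95 on intestine. On crypt the fat cell gene Cidec alone had 2.10, and the members Dmbt1 and Spink3 had 8.42 and 7.45. The part of other tissue in the members' intestine signal was not tested.

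**Figure D4:**
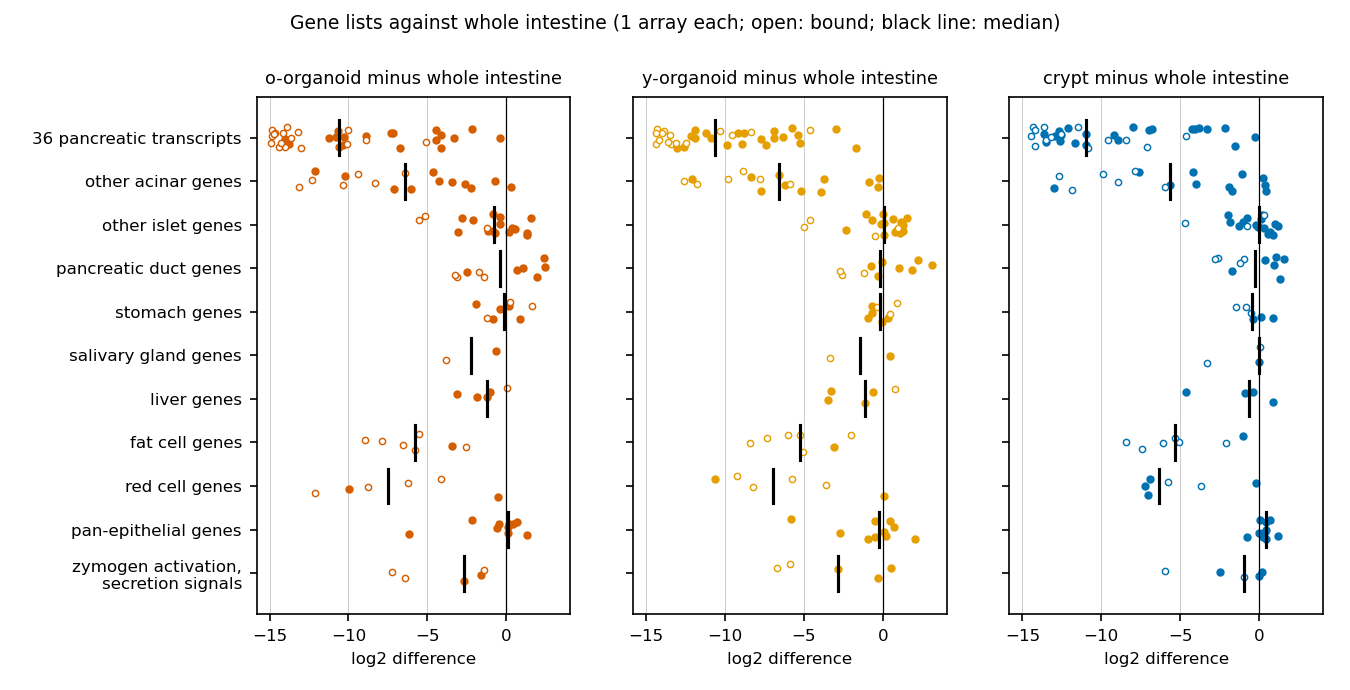
Log2 differences of o-organoid, y-organoid and crypt minus whole intestine for the members and 10 other gene lists, with 1 point a gene, open points for bounds and a black line at the median of each list. The 36 members lie furthest left (medians -10.62 for o-organoid, -10.60 for y-organoid and -10.97 for crypt), other acinar, fat cell and red cell genes are also mostly lower, and other islet, stomach and pan-epithelial genes have medians between -0.78 and 0.43.

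On the gut side of enzyme activation, Tmprss15, which encodes enteropeptidase, was at least 153-fold lower on o-organoid than on intestine, at least 106-fold lower on y-organoid and 5.60-fold lower on crypt. Secretin (Sct), a gut hormone that drives bicarbonate secretion from the pancreas, was 6.28-fold lower on o-organoid and 7.0-fold lower on y-organoid than on intestine.

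The genes most like the members over these 4 arrays were ranked by intestine signal minus the highest of the other 3 signals, among 13605 named genes well above background on intestine. Of the 50 with the largest value, 24 were members, which is how the set was chosen. Among the 12 others ranked highest were Reg2 (11.78), Jchain (10.72), Igh-VJ558 (9.95), Sparc (9.61), Dcn (9.12), Actg2 (8.62), Acta2 (8.42), Cfd (8.40), Cnn1 (8.39), Adamdec1 (8.31) and Sparcl1 (8.19). These are a regenerating family gene, immunoglobulin genes, matrix genes, smooth muscle genes, the adipsin gene Cfd of the fat cell list, and Adamdec1. Each of them was dim on at least 1 other array.

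Promoters of the members were read from RefSeq on assembly GRCm38.p6, where 29 of 36 genes matched with 30 promoters of 250 bases before and 50 after the gene start. The letters CACCTG, an E-box, and TTTCCC were searched on both strands because PTF1 is known to bind such a pair of boxes. CACCTG was in 53.3% of member promoters and 20.2% of all 32851 promoters, and TTTCCC in 9 of 30 member promoters and 25.2% of all. Both within 30 bases of each other were in 4 member promoters (13.3%), those of Cel, Gm13011, Prss1 and Cela1, and in 1.12% of all promoters. TATAAA, searched on the gene's strand, was in 9 of 30 member promoters and 8.32% of all, and CAAGGTCA, searched on both strands, in 6.67% and 1.56%. The 3 promoters with the shortest gap between the boxes are shown with the pair in capitals, Cela1 (GRCm38.p6 chr15:100687871-100688170, minus strand) and Prss1 (GRCm38.p6 chr6:41458680-41458979, plus strand) with a gap of 4 bases and Cel (GRCm38.p6 chr2:28563354-28563653, minus strand) with a gap of 15. A match is a run of letters and not a measured binding site.
Cela1: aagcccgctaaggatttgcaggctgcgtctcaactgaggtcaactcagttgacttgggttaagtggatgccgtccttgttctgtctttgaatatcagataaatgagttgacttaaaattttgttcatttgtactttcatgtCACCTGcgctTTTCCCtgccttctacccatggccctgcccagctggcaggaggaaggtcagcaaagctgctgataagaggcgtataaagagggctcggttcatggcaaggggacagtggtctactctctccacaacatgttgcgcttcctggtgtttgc
Prss1: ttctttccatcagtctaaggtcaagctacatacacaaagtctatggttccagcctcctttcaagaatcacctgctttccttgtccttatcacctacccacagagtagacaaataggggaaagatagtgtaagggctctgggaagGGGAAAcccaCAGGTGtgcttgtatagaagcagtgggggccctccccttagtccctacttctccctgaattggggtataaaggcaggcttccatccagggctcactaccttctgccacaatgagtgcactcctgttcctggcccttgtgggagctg
Cel: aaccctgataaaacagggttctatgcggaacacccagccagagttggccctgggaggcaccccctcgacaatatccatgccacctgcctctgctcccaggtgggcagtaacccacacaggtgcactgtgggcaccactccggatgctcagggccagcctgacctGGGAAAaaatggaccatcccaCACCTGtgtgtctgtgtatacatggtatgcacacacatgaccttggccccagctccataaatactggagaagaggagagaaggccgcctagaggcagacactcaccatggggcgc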

How the data were processed

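Total RNA was labelled with Cy3 after low-input amplification, per the labels' protocols. Spot intensity values, as the authors deposited them, came from Agilent Feature Extraction 10.7.3.1, and probe positions are on mm9, per the file headers. A second file deposited by the authors holds processed values, found here to be a ratio of each processed intensity to 1 constant per array, with a median of 1.0 and no gene centring.

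Control spots (1377 an array) and outlier spots (108 to 165 an array) were left out. From the log2 of the processed intensities the array's own 75th percentile was taken off. Member probes were spotted singly, and none was saturated. A gene counted as higher or lower at 4-fold (2.0 on the log2 scale), with dim sides at their bound. Scripts used python 3.11.15, numpy 2.4.6, pandas 2.3.3 and R 4.3.3 with limma 3.58.1 (normexp, offset 50, and quantile normalization), and were tested on simulated data. The simulated differences were set in bright probes only and were smaller than most member differences from intestine. That simulation therefore did not test bounds for changed probes. The 7 alternatives were median scaling, quantile normalization, normexp, no filter on dim probes, the mean over probes, 2-fold and the deposited table. Gene names came from RefSeq on GRCm38.p6. All members are named; other lists gave up to 4 genes with the widest difference, and pancreas lists every gene past 4-fold, in the comparisons described. Slc30a8, G6pc2, Nr5a2, Gata4, Xist and Ddx3y were chosen after their values were seen. The members and all lists were chosen with earlier results of these data known. The number of arrays limits the precision. Some genes that the rule takes in are not reported here.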

Additional observations from a re-analysis of the deposited data

How the results depend on the processing

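With 1 array a group no replicate could be left out. No paired analysis was possible because each group has only replicate 1. The count of members at least 4-fold lower stayed within 1.5 times its value under all 7 alternatives for crypt, y-organoid and o-organoid minus intestine and for y-organoid minus crypt. For o-organoid minus crypt, where the count was 2, it was 1 with normexp, 9 without the filter on dim probes, 1 with the mean over probes and 10 at 2-fold. For o-organoid minus y-organoid, where it was 1, it was 0 with median scaling, 0 with quantile normalization, 0 with normexp, 0 with the deposited table, 5 without the filter and 6 at 2-fold. No member difference called at 4-fold changed sign. The median member difference ranged from -10.86 to -9.75 for o-organoid, -11.02 to -9.33 for y-organoid and -11.24 to -9.64 for crypt, each minus intestine.

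Scaling by the array median moved the median of all genes to 0.80 for o-organoid minus intestine, 0.40 for y-organoid minus intestine and 0.83 for crypt minus intestine, and to -0.37 for y-organoid minus crypt and 0.45 for o-organoid minus y-organoid. It gave 630 genes at least 4-fold higher and 917 lower on crypt than on intestine, beside 65 and 1339 by the 75th percentile. The higher and lower counts were 2490 and 1404 for o-organoid minus intestine, beside 644 and 2298. They were 1294 and 1624 for y-organoid minus intestine, beside 921 and 1872, and 419 and 1294 for y-organoid minus crypt, beside 832 and 755. The cause of these changes was not tested. Signals near background limit the precision of many member values outside intestine.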
